A study of Mus musculus with 12 samples.

Results

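The replication-dependent histone genes are the 69 gene symbols, of 24881 in the expression table, that begin with Hist1h, Hist2h, Hist3h or Hist4h. They comprise 6 genes for the linker histone H1, 19 for H2A, 19 for H2B, 12 for H3 and 13 for H4. Their RNA was measured in R1 mouse embryonic stem cells (ESCs) that carry the FUCCI cell cycle reporter and were sorted for G1 phase. WT and P53-/- cells were each grown in serum or in 2i, the serum-free medium with a MEK and a GSK3 inhibitor that holds ESCs in the naive ground state, and 2 libraries were made for each of the 4 groups. The P53-/- cells came from CRISPR/Cas9-edited clones, and the study used a pair of such clones for its RNA sequencing, so that the 2 P53-/- libraries of a medium can differ by clone. P21-/- cells and their controls, also part of the series, were not analysed here.

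Histone proteins package DNA into nucleosomes, in which H2A, H2B, H3 and H4 form the core and H1 binds the linker DNA. The replication-dependent genes lie in clusters, have no introns as a rule, and are transcribed mainly in S phase, when new DNA must be packaged. Their mRNAs end in a conserved stem-loop in place of a poly(A) tail. The stem-loop binding protein Slbp and the U7 small nuclear ribonucleoprotein form this end, and Npat, a substrate of cyclin E and Cdk2, drives transcription of the genes at histone locus bodies. When replication stops the mRNAs are degraded. ESCs cycle fast, and in serum their G1 phase is short.

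The libraries were made from ribosomal RNA-depleted total RNA with random primers, so mRNAs without a poly(A) tail could be read. Levels are given in FPKM, a unit of fragments per transcript length and library size. Levels set between genes, such as ranks and subtype shares, rest on the transcript length used for each gene. The annotated transcripts searched here ran on past the stem-loop by 4884 bases in Hist1h1d and 2445 in Hist4h4. How library size was counted is not given in the sources used here, and levels set between libraries rest on that scaling. Trp53, which encodes P53, was at 26.8 and 33.7 FPKM in WT 2i against 7.25 and 1.88 in P53-/- 2i, and at 77.6 and 75.1 in WT serum against 16.8 and 3.68 in P53-/- serum. All P53-/- libraries lay below the WT libraries of the same medium, with the higher level in library 1 each time. The limma log2 fold change of Trp53 was -2.98 in 2i (adjusted p = 0.0547), a call, and -3.26 in serum (adjusted p = 0.15), which did not pass. The summed level of 10 pluripotency markers was 3639 to 4509 FPKM in the 8 libraries, but single markers differed. Of the 10, 4 were called lower and 1 higher in WT 2i than in WT serum, against 28.6% and 27.2% of all genes. In P53-/- cells 7 were lower and 1 higher in 2i, against 30.1% and 28%. With P53 loss in 2i, 1 of the 10, Klf4, was called lower, against 5.97% of all genes. The summed level of 8 fibroblast markers was split by medium, with 7.73 to 10.5 FPKM in the 4 serum libraries and 0.761 to 1.34 in the 4 2i libraries. Most of it in serum was Thy1, a surface glycoprotein gene, which was called lower in 2i in WT (log2 fold change -3.53) and P53-/- cells (-4.01), while the other 7 markers summed to 0.0857 to 0.183 FPKM in serum and 0.368 to 0.595 in 2i, 2 of them at 0 in every library. The summed level of 7 primitive endoderm markers was 1.28 to 4.36 FPKM. The total FPKM of a library ranged from 6695118 to 7755625 in 2i and from 16222753 to 80308506 in serum. The 70 Snord genes, which encode short nucleolar RNAs, held 4952825 to 5840660 of it in 2i and 14399937 to 72516532 in serum. Library 2 of WT serum had the most.

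Conserved 3′ ends define the mRNAs of this class. The letters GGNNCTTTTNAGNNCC were found in the annotated transcript of 44 of the 69 genes, against 45 of 55272 other genes (0.0814%). A GENCODE M21 transcript often ran on past the stem-loop, by over 100 bases in 22 of the 44. One gene was chosen to show each form of the stem-loop, with the 16 letters of the stem-loop in capitals and up to 7 bases on either side, read from the annotated transcript on the coding strand:
Hist1h2bh: acccaaaGGCTCTTTTCAGAGCCactcaag
Hist1h3e: ccaaaacGGCTCTTTTAAGAGCCacctcca
Hist1h4h: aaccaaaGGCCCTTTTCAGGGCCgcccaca
Hist1h4i: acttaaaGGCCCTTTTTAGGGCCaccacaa
Hist1h4b: tacaaaaGGTCCTTTTCAGGACCactcact
Hist2h2ac: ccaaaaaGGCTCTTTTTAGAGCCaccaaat

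The first form was the most common, with 26 genes, and the third was seen in 7 genes, all of them H4. The form of Hist1h3e was seen in 6 genes, and those of Hist1h4i, Hist1h4b and Hist2h2ac in 2, 2 and 1. The H4 genes with the motif had GGCC or GGTC at the 5′ side of the stem, where the others had GGCT.

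The upstream sequences of 5 genes are shown because these genes mark the range of the differences between media that follow: Hist1h2bh and Hist1h2bl had the largest falls of all histone genes with levels above 0 in every library, Hist1h3i the largest of the H3 genes, and Hist1h3e and Hist1h1c showed no call. Each is the 250 bases before the RefSeq start site (GRCm38.p6), with matches on either strand to CCAAT (the motif of NF-Y), TATAAA (the TATA box), ATTTGCAT (the octamer of the Oct factors) and AAACACA (the H1 box) in capitals:
Hist1h2bh (chr13:23543445-23543694, minus strand): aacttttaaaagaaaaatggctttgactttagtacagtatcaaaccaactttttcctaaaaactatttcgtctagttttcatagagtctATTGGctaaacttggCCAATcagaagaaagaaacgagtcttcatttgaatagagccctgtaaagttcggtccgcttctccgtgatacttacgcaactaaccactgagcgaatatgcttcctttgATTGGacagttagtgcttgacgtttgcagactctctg
Hist1h2bl (chr13:21716184-21716433, minus strand): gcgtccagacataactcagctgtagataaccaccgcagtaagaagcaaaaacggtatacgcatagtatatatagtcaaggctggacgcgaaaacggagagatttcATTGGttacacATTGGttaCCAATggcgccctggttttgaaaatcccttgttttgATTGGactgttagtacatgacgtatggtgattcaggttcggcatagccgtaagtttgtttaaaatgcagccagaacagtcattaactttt
Hist1h3i (chr13:21783398-21783647, minus strand): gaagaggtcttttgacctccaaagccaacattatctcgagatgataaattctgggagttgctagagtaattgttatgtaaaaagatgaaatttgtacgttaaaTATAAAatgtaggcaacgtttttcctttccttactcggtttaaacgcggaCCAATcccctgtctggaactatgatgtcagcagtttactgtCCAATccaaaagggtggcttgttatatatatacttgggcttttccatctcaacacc
Hist1h3e (chr13:23562386-23562635, minus strand): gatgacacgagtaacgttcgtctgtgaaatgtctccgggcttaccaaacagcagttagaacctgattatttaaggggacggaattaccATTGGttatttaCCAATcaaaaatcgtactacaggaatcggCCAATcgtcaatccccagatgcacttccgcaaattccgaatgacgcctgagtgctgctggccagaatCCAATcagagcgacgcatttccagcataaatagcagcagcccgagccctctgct
Hist1h1c (chr13:23738557-23738806, plus strand): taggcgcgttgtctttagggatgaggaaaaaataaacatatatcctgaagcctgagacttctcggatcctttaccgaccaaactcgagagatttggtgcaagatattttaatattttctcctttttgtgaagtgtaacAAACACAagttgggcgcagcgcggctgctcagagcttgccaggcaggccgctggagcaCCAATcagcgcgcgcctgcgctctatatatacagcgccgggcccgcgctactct

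RefSeq windows of 300 bases (250 before and 50 after the start) were found for 61 of the 69 genes, with a second window for Hist1h2be. CCAAT was in every window of an H1, H2A, H2B or H3 gene and in 3 of 12 H4 windows (25%), against 37.4% of all 32851 windows searched. ATTTGCAT was in 7 of 17 H2A and 7 of 17 H2B windows and in no window of H1, H3 or H4, against 1.74% of all. AAACACA was in 5 of 6 H1 windows, against 7.18% of all. TATAAA was in 4 of 6 H1, 11 of 17 H2A, 8 of 17 H2B, 4 of 10 H3 and 8 of 12 H4 windows, against 13.6% of all. In 9 pairs an H2A and an H2B gene faced away from each other with overlapping windows. The Hist1h2bl sequence above was thus also the upstream region of Hist1h2ai. Matches were counted on either strand, so a match in an overlap counted for both genes, as with the TATAAA of Hist1h2ad and Hist1h2bf. They were also counted at any position, so a TATAAA match need not lie where a TATA box works.

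On the GRCm38 assembly the genes lay in 4 clusters. Hist1 on chromosome 13 held 55 genes, of which 23 were in a stretch at chr13:21715763-22043676 (called proximal here), 31 at chr13:23531050-23934851 (distal) and 1, the annotated pseudogene Hist1h2al, alone at chr13:51202727-51203065. Hist2 at chr3:96219865-96270132 held 10 genes, Hist3 at chr11:58948920-58956830 held 3, including the annotated pseudogene Hist3h2bb-ps, and Hist4 at chr6:136801553-136804415 held 1, Hist4h4. Many of the genes are near copies of each other. Of the 69 genes, 31 shared over 50% of their 50-base stretches with other members, 6 shared over 90% and 6 shared none, so fragments of many members could have been split between copies. 65 genes passed the minimum mean of 0.5 FPKM for testing. Hist2h2aa1, Hist2h2aa2, Hist2h3c1 and Hist2h3c2 were at or near 0 in all libraries and were not tested. Of their 50-base stretches, 89.2%, 100%, 34.7% and 63.5% were shared with other members, so their levels rest in part on how shared fragments were assigned.

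On the FPKM scale as deposited, the summed level of the 69 genes was higher in serum than in 2i. It was 40962.5 and 74268 FPKM in the WT serum libraries, 34554 and 50372 in P53-/- serum, 23811 and 23529 in the WT 2i libraries, and 23731 and 19126 in those of P53-/- 2i. Every serum library lay above every 2i library. As a share of a library's total FPKM, most of which came from the Snord genes, the order was the opposite, with 0.0925% to 0.253% in the serum libraries and 0.286% to 0.353% in the 2i libraries. The median-ratio scaling factors, set by the typical gene, were 1.01 to 1.03 in serum and 0.985 to 0.999 in 2i. The serum mean was 2.43 times the 2i mean in WT cells, with 1.72 to 3.16 over the 4 pairings of libraries, and 1.98 times in P53-/- cells, with 1.46 to 2.63. With 2 libraries against 2, an exact two-sided permutation test of a single sum cannot give a p below 0.333. The sum of the fibroblast markers, through Thy1, was also higher in every serum library, and its part in the histone difference was not tested. In a bulk sample, fewer cells that transcribe these genes and less of their RNA per cell cannot be told apart.

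**Figure D1:**
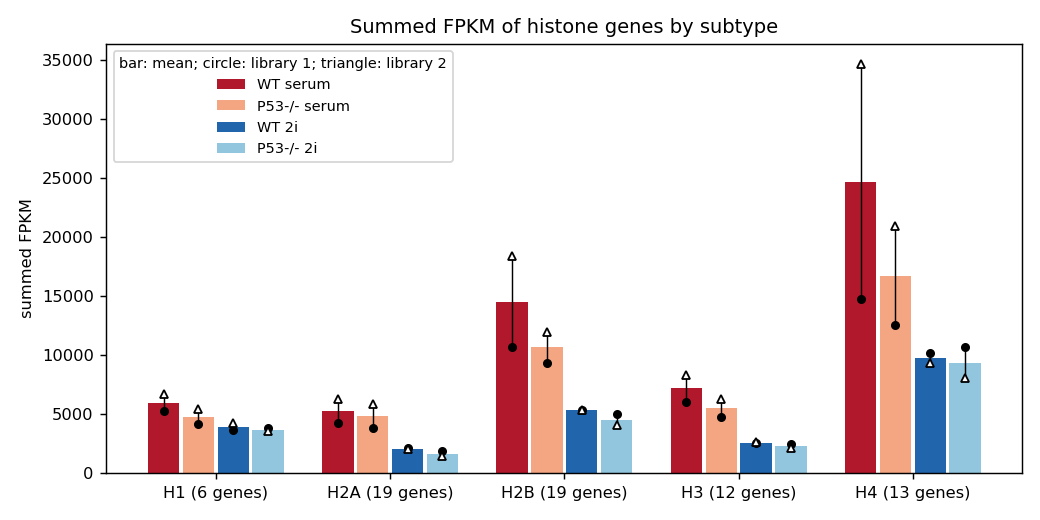
Summed FPKM of the genes of each histone subtype in serum-grown and 2i-grown WT and P53-/- cells; bars are means of 2 libraries, circles library 1 and triangles library 2. H4 had the highest sum in every group, and its WT serum libraries were at 14775 and 34635 FPKM, while those of WT 2i were at 10190 and 9305.

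H4 genes made up the largest part of the sum, with 42.9% in WT serum and 41.2% in WT 2i. H2B followed with 25.2% and 22.7%. In WT 2i the subtypes were well separated: H4 was at 10190 and 9305 FPKM, H2B at 5366 and 5360.1, H1 at 3618 and 4236, H3 at 2511 and 2629, and H2A at 2125 and 1999. The same order without overlap was seen in P53-/- 2i. In WT serum, the levels of H4 (14775 and 34635) overlapped with those of H2B (10686 and 18372). H3 (6028 and 8301), H1 (5271 and 6655) and H2A (4203 and 6305) overlapped with each other. Within each WT serum library, however, the order was H4, H2B, H3, H1 and H2A, from highest to lowest. H1 had the smallest ratio of WT serum to WT 2i, 1.52 (1.24 to 1.84 over the pairings), and its part of the sum was 10.3% in WT serum and 16.6% in WT 2i. The ratio was 2.55 (1.98 to 3.15) for H2A, 2.71 (1.99 to 3.43) for H2B, 2.79 (2.29 to 3.31) for H3 and 2.53 (1.45 to 3.72) for H4. The difference between H1 and the core subtypes was not tested.

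A few genes held much of each sum, and their order changed with the medium. By the mean over all 8 libraries, in which the serum libraries weigh more, Hist2h2bb, an H2B gene, had 2420.1 FPKM, or 6.67% of the sum, followed by the H4 genes Hist1h4h (2273 FPKM), Hist4h4 (1921) and Hist1h4a (1785). Within the groups, Hist1h4h had the highest mean in WT serum (3676 FPKM, with Hist2h2bb at 3553) and in P53-/- serum (2666, with Hist2h2bb at 2395), Hist2h2bb in WT 2i (2158) and Hist1h1a in P53-/- 2i (1637, with Hist2h2bb at 1575). Among H1 genes, Hist1h1a had the highest mean in every group, with 1716 FPKM over all libraries, then Hist1h1d (1014) and Hist1h1c (887), and Hist1h1c was above Hist1h1d in both 2i groups. The H3 genes with the highest means over all libraries were Hist1h3e (747 FPKM), Hist1h3c (715) and Hist1h3h (631). In WT serum Hist1h3c (1352) and Hist1h3h (1089.9) were above Hist1h3e (824), whereas in WT 2i Hist1h3e (818) was above Hist1h3c (294). The H2A genes with the highest means over all libraries were Hist1h2ab (455), Hist1h2ak (419) and Hist1h2ac (397), but in WT 2i Hist3h2a (406) was above Hist1h2ak (255), Hist1h2ac (208) and Hist1h2ab (204). Over all libraries, the H2B genes Hist1h2bb (1306) and Hist1h2bc (883) came after Hist2h2bb. These orders are of means of 2 libraries, rest on the transcript lengths used for FPKM and were not tested. Of the genes known for expression in testis, the linker histone gene Hist1h1t had a mean of 6.63 FPKM, Hist1h2aa of 23.2 and Hist1h2ba of 75.1.

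Serum libraries of one group differed more for these genes than for others. The median SD between the 2 libraries, on the log2 scale, was 0.40 for the tested histone genes in WT serum and 0.38 in P53-/- serum, against 0.11 and 0.16 for all genes. In 2i it was 0.16 in WT and 0.24 in P53-/-, against 0.18 and 0.14. Library 2 of WT serum was above library 1 by a median log2 difference of 1.29 for H4 genes, 0.57 for H2B, 0.50 for H3, 0.46 for H2A and 0.36 for H1. The 30 other protein-coding genes of up to 500 bases had a median difference of 0.41 between the same libraries, and the Snord sum was 14399937 FPKM in library 1 and 72516532 in library 2. The part of these differences in the serum levels was not tested. Hist4h4, whose RNA can also be polyadenylated, had the widest spread of the highly expressed genes, with 1418 and 5576 FPKM in WT serum.

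The comparison of 2i with serum asked how the medium changed the G1 transcriptome. In WT cells, 47 of the 65 tested histone genes were lower in 2i (adjusted p below 0.1 and fold above 1.5, limma) and 2 were higher, whereas 28.6% of all 12572 tested genes were lower and 27.2% were higher. The median log2 fold change of the histone genes was -1.44, and that of all genes -0.02. Both 2i libraries lay below both serum libraries for 51 of the 65 genes (78.5%), against 41.7% of all genes. The lower genes came from every subtype: 4 of 6 H1, 13 of 17 H2A, 14 of 19 H2B, 8 of 10 H3 and 8 of 13 H4 genes. They also came from both parts of Hist1, with 25 of 31 distal and 15 of 23 proximal genes, and from Hist2 (5 of 6) and Hist3 (2 of 3), while Hist4h4 was not called.

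**Figure D2:**
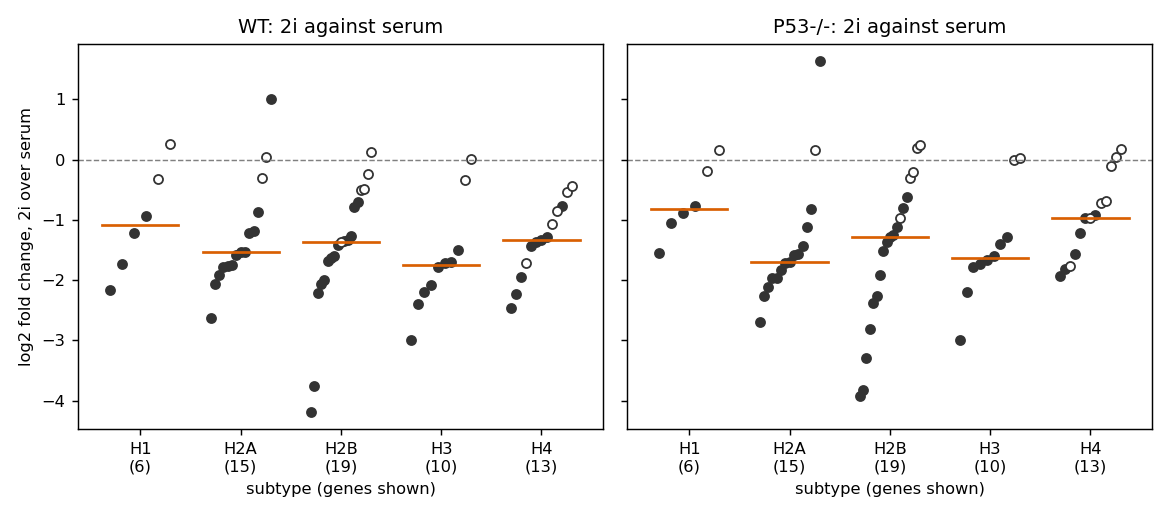
Log2 fold change of 2i over serum for 63 tested histone genes by subtype, in WT (left) and P53-/- cells (right); filled points passed the test, open points did not, and orange lines are medians of the genes shown. Hist1h2ao and Hist1h2ap, each listed at 0 in one medium, were left out, and most points of every subtype lay below 0 in WT cells.

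Among genes above 0 in every library, the largest falls were in H2B and H3 genes. Hist1h2bh was at 480.0 and 584 FPKM in WT serum and had fallen to 25.0 and 33.8 in WT 2i, with a log2 value of -4.18 (SE 0.28, adjusted p = 3.4e-05, limma). Hist1h2bl was at 509.8 and 709.7 FPKM in WT serum and in WT 2i at 39.8 and 49.3 (log2 fold change -3.76, SE 0.21). Hist1h3i went from 620.0 and 1008 FPKM to 91.9 and 106, a log2 fold change of -3.00 (SE 0.27). For these genes the groups were far apart compared with the spread within them. The H2A gene Hist1h2ad was at 465 and 687 FPKM in WT serum and 83.9 and 99.7 in WT 2i (log2 fold change -2.63, SE 0.26). Of these, Hist1h2bh shared 14.0% of its 50-base stretches with other members, whereas Hist1h2bl shared 82.8%, Hist1h3i 87.6% and Hist1h2ad 67.1%.

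**Figure D3:**
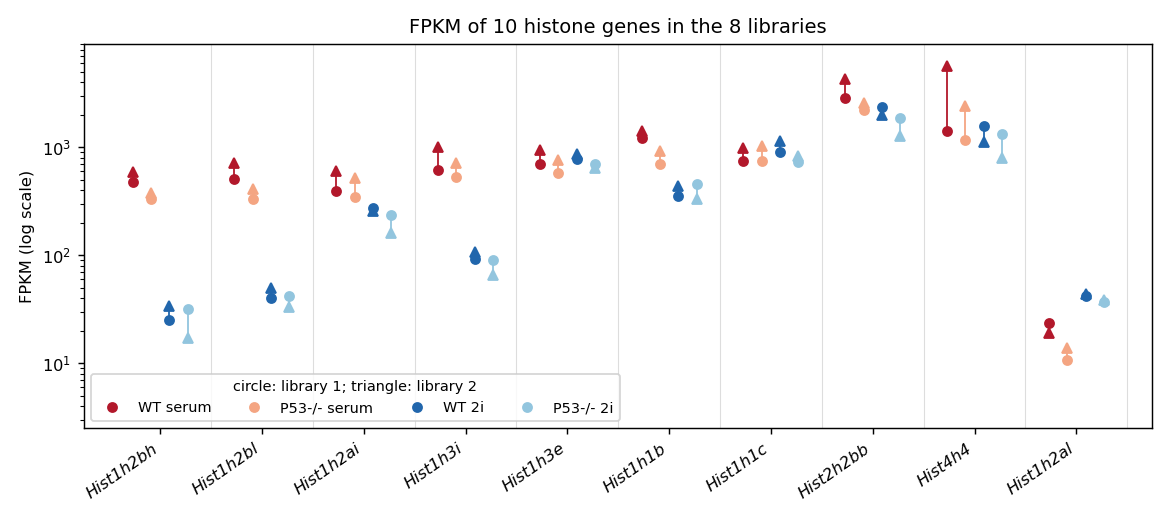
FPKM on a log scale of 10 histone genes in WT and P53-/- cells of each medium; circles are library 1 and triangles library 2. Hist1h2bh, Hist1h2bl and Hist1h3i were lower in all 4 2i libraries than in all 4 serum libraries, whereas the groups of Hist1h3e and Hist1h1c overlapped and Hist1h2al was higher in 2i.

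Some abundant genes were not called on the FPKM scale. Hist1h3e had 701 and 948 FPKM in WT serum and 778 and 858 in WT 2i (log2 fold change 0.00, SE 0.21), and the groups overlapped. Hist1h1c, a linker histone gene whose RNA can be polyadenylated, had 740.4 and 984 FPKM in WT serum and 902 and 1146 in WT 2i (log2 fold change 0.25, SE 0.23, adjusted p = 0.378, limma). Hist1h1a, the H1 gene with the highest mean, had 1781 and 2431 in WT serum against 1629 and 1689 (log2 fold change -0.33, SE 0.22). By contrast, Hist1h1b was called lower, with 1209 and 1409 FPKM in WT serum and 353 and 438 in WT 2i (log2 fold change -1.73, SE 0.23), and Hist1h1d with 1199 and 1488 against 615 and 785 (-0.94, SE 0.25). Hist2h2bb was called with a log2 fold change of -0.70, from 2862 and 4243 to 2331 and 1986 FPKM. Hist4h4 showed overlapping groups, with 1584 and 1123 FPKM in the WT 2i libraries (log2 fold change -1.08, SE 0.63). These missing calls depended on the scaling. In an added fit with values centred on genes of like length, 58 histone genes were lower in WT 2i, with a median log2 fold change of -2.03. Called in either direction in that fit were 90.8% of the histone genes and 54.4% of all genes. Of the 16 genes without a call, 11 were among the 58, including Hist1h3e (-0.63), Hist1h1a (-0.97) and Hist4h4 (-1.71). Hist1h1c (-0.39) was still not called.

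The other genes with known polyadenylated forms were called lower. Hist1h2bc was at 1220.0 and 1666 FPKM in WT serum and 533 and 594 in WT 2i, and Hist2h2be at 1.05 and 0.745 against 0.329 and 0.216. Of the testis genes, Hist1h1t (log2 fold change -2.16, SE 0.49) and Hist1h2aa (-1.58, SE 0.49) were called lower at low levels, and Hist1h2ba (-0.50, SE 0.35) was not called. In the Hist3 cluster, Hist3h2ba was lower in 2i (58.5 and 94.9 against 33.0 and 16.3 FPKM), whereas Hist3h2a was at 378 and 648 against 464 and 348 and was not called.

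The 9 head-to-head pairs ranged from like to unlike changes. In the pair of Hist1h2ao and Hist1h2bq the first is listed at 0 in 2i, as given below. Of the other 8 pairs, both genes were called lower in WT 2i in 5 and only the H2A gene in 3, and the log2 fold changes of partners lay within 1 of each other in 4. These like pairs were Hist1h2ae and Hist1h2bg (-1.54 and -1.34), Hist1h2ah and Hist1h2bk (-1.19 and -1.60), Hist1h2ag and Hist1h2bj (-1.92 and -1.27), and Hist1h2ad and Hist1h2bf (-2.63 and -1.99). In P53-/- cells both genes were called lower in 4 of the 8 pairs, and partners lay within 1 of each other in 2, the first pair named here and that of Hist1h2ah and Hist1h2bk. In WT cells Hist1h2bl had a log2 fold change of -3.76, and Hist1h2ai, which starts from the same upstream region in the opposite direction, one of -0.88, from 391 and 606 FPKM in serum to 272 and 259 in 2i. Hist1h2ak fell by 1.21 on the log2 scale, and its partner Hist1h2bn had a value of 0.13 and was not called. Hist1h2an had a log2 fold change of -1.74 and its partner Hist1h2bp one of -0.24 without a call, and the testis genes Hist1h2aa and Hist1h2ba were the fourth unlike pair. The differences within pairs were not tested, and many of these genes shared over 50% of their 50-base stretches with other members.

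The genes called higher in 2i were Hist1h2al and Hist1h2ap. Hist1h2al, the pseudogene outside the clusters, was at 23.6 and 19.0 FPKM in WT serum and 41.6 and 43.5 in WT 2i (log2 fold change 1.01, SE 0.16, adjusted p = 0.00131, limma). It was not called in the length-centred fit (log2 fold change 0.38, adjusted p = 0.225, limma). Hist1h2al shares 67.6% of its 50-base stretches with other members, and 65.5% with Hist2h2aa2, which was listed at or near 0. How shared fragments were assigned was not tested. Hist1h2ap was listed at 0 in all 4 serum libraries, and Hist1h2ao, which shares 93.5% of its 50-base stretches with other members, at 0 in all 4 2i libraries. The sum of this pair was 58.7 and 23.7 FPKM in WT serum and 74.3 and 61.5 in WT 2i, so no fold is given for either gene.

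The falls were seen in genes with and without near copies. Of the 37 tested genes for which over 50% of the 50-base stretches were their own, 27 were lower in WT 2i. Of the other 28, 20 were, and of all genes 28.6% were. Genes with the stem-loop in the annotated transcript were lower in 30 of 40 cases, and those without in 17 of 25. Transcript length was also examined because the histone genes are short. Counted to the end of the stem-loop in the 44 genes that have it, and over the shortest annotated transcript in the other 25, their median length was 462 bases, and that of their longest annotated transcripts, the measure used for other genes, was 534. Of the 41 tested histone genes whose longest annotated transcript had up to 700 bases, 33 were lower in WT 2i, with a median log2 fold change of -1.64. The 30 other protein-coding genes of up to 500 bases had a median log2 fold change of 0.63 between WT 2i and WT serum. For the 109 genes of 500 to 700 bases it was 0.52. Estimates, called or not, were below 0 for 20% and 26.6% of them, so that other short genes were on the whole higher in 2i. Protein-coding genes over 2500 bases had a median of -0.20.

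**Figure D4:**
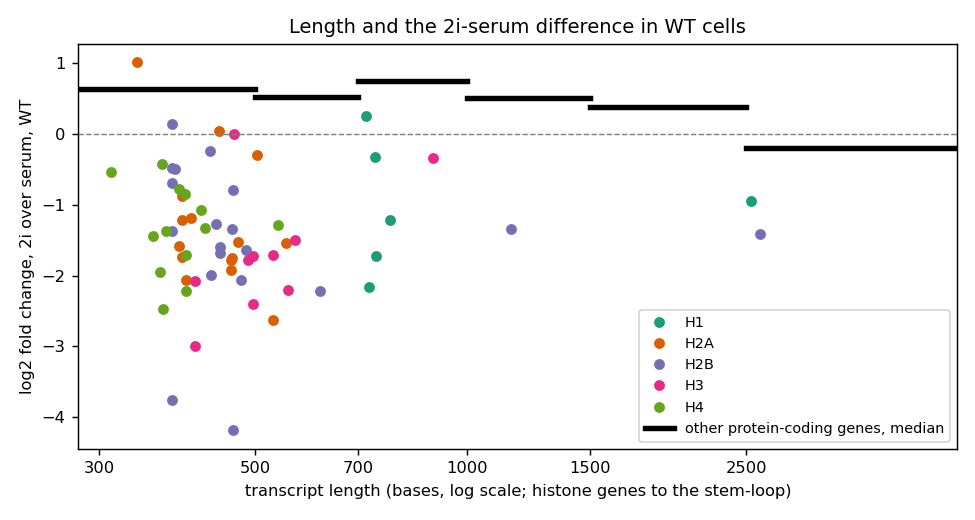
Log2 fold change of 2i over serum in WT cells against transcript length in bases (log scale; to the end of the stem-loop where one was found) for 63 tested histone genes, coloured by subtype; black bars are medians of other protein-coding genes in 6 classes of longest annotated transcript, the last class running on past the axis. The histone genes of up to 700 bases lay mostly below 0, whereas other genes of that length had medians of 0.63 and 0.52.

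P53-/- cells showed the 2i-serum difference as well. Of the 65 genes, 46 were lower in 2i and 2 were higher (30.1% and 28% of all genes), and both 2i libraries lay below both serum libraries for 50 genes (76.9%, against 42.1%), with a median log2 fold change of -1.37 against -0.03 for all genes. By subtype, 4 of 6 H1, 14 of 17 H2A, 14 of 19 H2B, 8 of 10 H3 and 6 of 13 H4 genes were lower. Called in both genotypes were 46 genes, 44 lower and 2 higher, while 3 were called in WT only (Hist1h4a, Hist1h4j and Hist1h2bj), 2 in P53-/- only (Hist3h2a and Hist1h2br) and 14 in neither. No gene passed the test of the difference between the genotypes, given below, so these 5 are not shown to differ.

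Hist1h2bh, Hist1h2bl and Hist1h3i were again called with large falls in P53-/- cells. Hist1h2bh was at 329 and 378 FPKM in serum and 31.5 and 17.1 in 2i (log2 fold change -3.92, SE 0.28), Hist1h2bl at 329 and 406 against 41.8 and 33.0 (-3.29, SE 0.21), and Hist1h3i at 528 and 708 against 90.01 and 65.2 (-3.00, SE 0.27). Hist1h2br, called lower as well, was at 0.595 and 2.76 FPKM in serum and listed at 0 in both 2i libraries. Hist1h3e, with 576 and 766 against 705 and 648 FPKM, and Hist1h1c, with 749 and 1034 against 723 and 821, were again not called, although Hist1h1c was lower in the length-centred fit (log2 fold change -0.87). Hist1h2al was again higher in 2i, with 10.7 and 13.9 FPKM in serum and 36.8 and 38.8 in 2i (log2 fold change 1.63, SE 0.16). The H4 genes Hist1h4k (0.17), Hist1h4d (0.04) and Hist1h4j (-0.10) had log2 fold changes near 0.

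The effect of P53 was the central question of the study. In 2i, 3 of the 65 histone genes were lower in P53-/- cells and none was higher, a share of 4.62%, against 10.3% of all genes called, 5.97% lower and 4.36% higher. An unadjusted p below 0.05 was found for 6 genes (9.23%), against 25.2% of all genes. The median log2 fold change was -0.17, and 0.02 for all genes. It was -0.03 without library 2 of P53-/- 2i and -0.31 without library 1. After quantile normalization the median was -0.34 and 7 histone genes were lower, a share of 10.8% against 10.2% of all genes called under the same scaling, so the lower share of calls among histone genes was not seen under that scaling. Hist1h2an, an H2A gene, was at 56.8 and 51.5 FPKM in WT and at 31.6 and 24.3 in P53-/- cells, a log2 fold change of -0.96 (SE 0.21, adjusted p = 0.0401, limma). Hist3h2ba, an H2B gene, was at 33.0 and 16.3 FPKM in WT and 11.4 and 9.37 in P53-/- cells, a log2 fold change of -1.16 (SE 0.34, adjusted p = 0.0812, limma). Both genes showed no overlap between genotypes. Hist1h2an shares 85.8% of its 50-base stretches with other members, and the sum with its near copies Hist1h2ad, Hist1h2ah and Hist1h2ai was 481 and 492 FPKM in WT and 438 and 345 in P53-/- cells, a smaller difference. The 3 calls did not all hold when a 2i library was left out, and calls among all genes became fewer as well. Over the alternative fits, the log2 fold change ranged from -1.15 to -0.78 for Hist1h2an and from -1.67 to -0.66 for Hist3h2ba. Without library 2 of WT 2i, Hist1h2bf had a log2 fold change of 0.63, the opposite direction to the calls. Hist3h2ba lost its call in 11 of 19 alternative fits. Hist1h2br was at 0.784 and 1.18 FPKM in WT and listed at 0 in both P53-/- libraries. It shares 88.7% of its 50-base stretches with other members, and the sum with its near copy Hist1h2bq was 0.784 and 2.95 FPKM in WT and 0.319 and 0.557 in P53-/-, so no fold is given.

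Genes of the smaller clusters had estimates below 0 in 2i. The other Hist3 members, Hist3h2a (464 and 348 FPKM in WT, 304 and 161 in P53-/-) and Hist3h2bb-ps (11.2 and 6.94 against 4.70 and 3.82), had log2 fold changes of -0.86 and -1.04 and were not called, and the sum of the 3 genes was 508 and 372 FPKM in WT and 321 and 174 in P53-/-. All 6 tested Hist2 genes had estimates below 0, from -0.20 to -0.96, without a call. In the distal part of Hist1, 14 of 31 estimates were below 0, with a median of 0.01, and in the proximal part 18 of 23, with a median of -0.25. Over all 65 genes 43 estimates (66.2%) were below 0, against 47% of all genes, and both P53-/- libraries lay below both WT libraries for 26 genes (40%), against 24.7%. The differences between clusters were not tested. Library 2 of P53-/- 2i differed from library 1 by a median of -0.32 on the log2 scale over the histone genes.

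**Figure D5:**
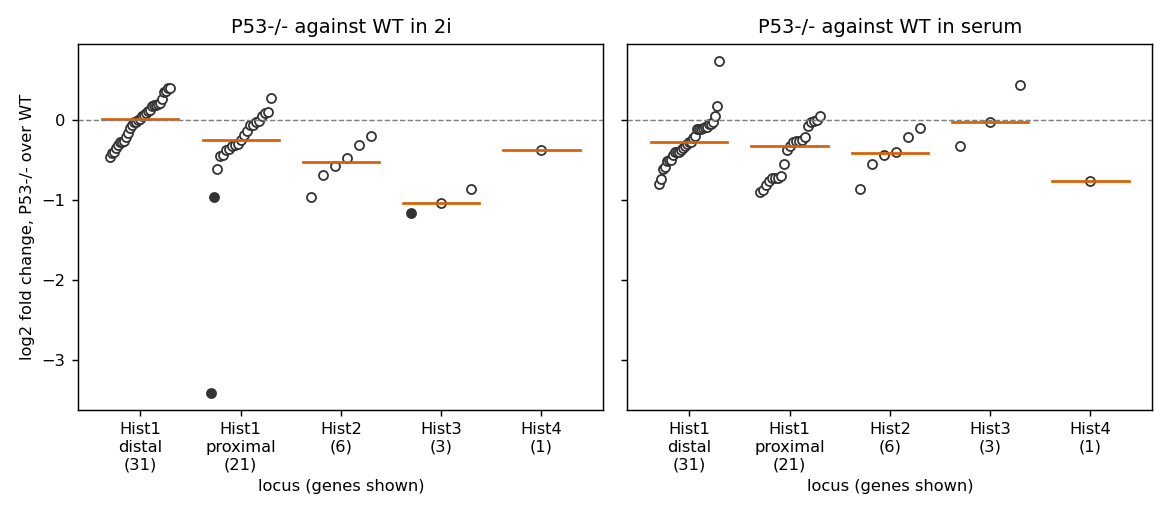
Log2 fold change of P53-/- over WT cells for 62 tested histone genes by locus, in 2i (left) and serum (right); filled points passed the test, open points did not, and orange lines are medians of the genes shown. Hist1h2ao, Hist1h2ap and Hist1h2al are left out; the 3 Hist3 genes lay between -0.86 and -1.16 in 2i, and no point passed in serum.

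In serum, no histone gene passed the limma test of P53-/- against WT cells, where 1.02% of all genes did, and 11 (16.9%) had an unadjusted p below 0.05, against 11.3% of all genes. With all libraries the estimates were mostly negative: 59 of 65 (90.8%) were below 0, against 47.1% of all genes, with a median of -0.32 against 0.02. This shift rested on single libraries: the median was -0.04 without library 1 of P53-/- serum, -0.60 without library 2, 0.00 without library 2 of WT serum and -0.68 without library 1. Both P53-/- libraries lay below both WT libraries for 20 of the 65 genes (30.8%, against 21.8% of all genes), and for none did both lie above (25.7% of all genes). Hist1h2bf, an H2B gene, was at 399 and 373 FPKM in WT and 206 and 239 in P53-/- serum (log2 fold change -0.80, SE 0.17, adjusted p = 0.122, limma). Hist1h2bl was at 509.8 and 709.7 in WT and 329 and 406 in P53-/- serum (-0.72, SE 0.21, adjusted p = 0.261, limma). For H4, the P53-/- sums of 12555 and 20895 FPKM lay on either side of the lower WT sum. The count of calls in serum became 1 when either WT 2i library was left out of the joint fit.

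Whether the effect of P53 differed between media was tested as an interaction. No histone gene passed the limma test, where 0.207% of all genes did, and 7 (10.8%) had an unadjusted p below 0.05, against 13.1% of all genes. Hist1h2bf had the smallest p of them: in 2i the P53-/- libraries, at 125 and 130.2 FPKM, lay above the WT libraries at 82.6 and 114, the opposite direction to serum, and the log2 interaction was 1.20 (SE 0.24, adjusted p = 0.161, limma). Without library 2 of WT 2i, 1 histone gene passed.

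Factors that make histone mRNA were in part lower in 2i. Of 23 tested genes for histone transcription and 3′ end processing, 11 were lower and 1 was higher in WT 2i than in WT serum, against 28.6% lower and 27.2% higher of all genes. The same counts were found in P53-/- cells, against 30.1% and 28%. Npat was at 15.7 and 17.8 FPKM in WT serum and 6.07 and 7.52 in WT 2i (log2 fold change -1.30), and Casp8ap2, which encodes the histone locus body protein FLASH, at 52.9 and 51.9 against 21.8 and 21.9 (-1.26). Zfp473, which encodes a zinc finger protein of the U7 complex, was at 12.6 and 11.4 against 3.73 and 3.36. Slbp was not called, with 107 and 99.6 FPKM in WT serum and 106 and 79.1 in WT 2i (log2 fold change -0.17), nor was the U7 subunit gene Lsm11 (-0.00), while Lsm10, its partner, was higher in 2i (12.8 and 12.8 against 27.4 and 26.6). Of 7 tested genes for decay of histone mRNA, 3 were lower and 1 was higher in WT 2i, with the same all-gene shares of 28.6% and 27.2%. Eri1, the exonuclease that binds the stem-loop, had a log2 fold change of -1.22 and the 5′ exonuclease gene Xrn1 one of -1.67, whereas Lsm4 was higher (0.89).

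Of 24 tested genes for chaperones that carry histones, 10 were lower in WT 2i and none was higher, against 28.6% and 27.2% of all genes, and in P53-/- cells 10 were lower and 1 was higher, against 30.1% and 28%. Nasp, an H3-H4 chaperone gene, was at 558 and 519 FPKM in WT serum and 126 and 148 in WT 2i (log2 fold change -1.98), and Nap1l1, which handles H2A-H2B, at 256 and 292 against 62.7 and 71.7 (-2.02). The 11 replacement variant genes, which are expressed outside S phase, were mixed, with 4 higher and 3 lower in WT 2i, near the shares of all genes. H2afj was higher in WT 2i (22.3 and 23.9 against 67.0 and 55.9 FPKM) and H2afz lower (571 and 717 against 416 and 319.6).

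Most G2/M genes and a part of the S-phase genes were lower in 2i, where 28.6% of all genes were lower and 27.2% higher in WT cells. Of 42 tested S-phase genes, 20 were lower, 2 were higher and 20 were not called in WT 2i, with a median log2 fold change of -0.51, and of 52 tested G2/M genes 45 were lower and 1 was higher, with a median of -1.28. In P53-/- cells, 18 S-phase genes were lower and 6 were higher, with a median of -0.38, and 36 G2/M genes were lower and none was higher, with a median of -0.93, against 30.1% and 28% of all genes. The summed levels of the lists were 3935 to 4041 FPKM (S phase) and 3540.3 to 3548 FPKM (G2/M) in WT serum, and 2507 to 2697 and 1676 to 1749 in WT 2i. The 2 WT serum libraries, whose histone sums differed by 1.81 times, were thus close in both lists. The part of cells outside G1 in the histone difference was not tested.

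P53 loss was compared in the same lists, which share some genes. Ccne2, a call in 2i, counts in both the transcription and processing list and the S-phase list. Cenpa counts in both the G2/M list and the variants. In 2i, 1 of the 23 transcription and processing genes, 1 of 24 chaperone genes and 2 of 42 S-phase genes were higher in P53-/- cells and none was lower, shares near the 4.36% of all genes called higher. Of the 52 G2/M genes, 13 were higher and 3 lower in P53-/- 2i, with a median log2 fold change of 0.40, where 4.36% of all genes were higher and 5.97% lower. Among the variants, Cenpa, the centromeric H3, was higher (50.3 and 34.8 FPKM in WT, 107 and 89.8 in P53-/-), and H2afj and H1fx were lower, H2afj from 67.0 and 55.9 to 28.0 and 26.0 FPKM. The S-phase genes had a median of 0.25, and the histone genes, in the same comparison, one of -0.17, which was -0.03 without library 2 of P53-/- 2i and -0.34 after quantile normalization. In serum, the only call in these lists was the G2/M gene Psrc1, which was lower in P53-/- cells (37.1 and 37.3 against 5.33 and 5.21 FPKM).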

How the data were processed

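The deposited table holds FPKM values per gene symbol, which the authors computed from reads mapped to mm9. Their processing notes name STAR, Cufflinks and DESeq2, without versions, and the library-size normalization is not given in the sources used here. Each header name occurs for 2 columns, so libraries were numbered by column order. FPKM give no read counts, and low values shared no clear step, so depth is unknown and no counting error is given. Values were taken as log2(FPKM + 0.1), and 12572 genes with a mean of at least 0.5 FPKM were fitted together over 8 libraries in limma 3.58.1 (R 4.3.3, empirical Bayes with trend). Fold changes are on that scale, which understates changes of low genes. Calls needed a Benjamini-Hochberg adjusted p below 0.1 and a fold above 1.5. Replicates may be technical, and p-values then measure only the spread between these libraries. Transcripts were from GENCODE M21 (GRCm38) and promoter windows from RefSeq (GRCm38.p6), matched by symbol because the files use mm9. The script was tested on simulated data over 12249 genes, with changes set in P53-/- 2i. Of 100 genes with a log2 change of 1, 55 were called, and of 100 with a log2 change of 2, 93 were.

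The members, gene lists and tests were chosen with earlier results of these data known. Genes named were the 3 highest of each subtype, up to 5 called members with the largest rise or fall per comparison, testis, polyadenylated, Hist3 and Hist4 genes, and up to 5 called genes per list with Slbp, Npat, Casp8ap2 and Trp53. Members named beyond these (Hist1h1b, Hist1h2ae, Hist1h2ag, Hist1h2ah, Hist1h2ai, Hist1h2bf, Hist1h2bg, Hist1h2bj, Hist1h2bk, Hist1h2bn, Hist1h2bp, Hist1h4d, Hist1h4j, Hist1h4k and the genes called in 1 genotype), and Lsm11, were chosen after their values were seen.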

Additional observations from a re-analysis of the deposited data

How the results depend on the processing

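The alternatives were other pseudocounts, minimum levels and scalings, limma without trend, a stricter threshold, fits restricted to the compared groups and leaving out each library; length centring and summing of near-identical copies were added after seeing the data. The counts of histone genes called between 2i and serum stayed within 1.5 times of the reported counts under all of them. With length centring they were 59 in WT and 55 in P53-/- cells, or 90.8% and 84.6%, against 54.4% and 56.6% of all genes. The called histone genes named for their size of change kept their direction in every alternative in which they were tested; genes without a call and genes of the other lists were not followed. The count called in 2i for P53 loss, 3, became 7 after quantile normalization (median log2 fold change -0.34 in place of -0.17). It became 1 where only the compared groups were fitted and 1 with near-identical copies summed. The share of all genes called was 10.3% in the reported fit, and 10.2%, 5.3% and 10.3% in these alternatives, in that order. The 3 calls did not all hold when a 2i library was left out, and calls among all genes became fewer as well. Without library 2 of WT 2i, Hist1h2bf had a log2 fold change of 0.63, the opposite direction to the calls. The cause was not tested. Hist3h2ba lost its call in 11 of 19 alternatives, Hist1h2br in 4 of 17 and Hist1h2an in 2 of 18. The count of 0 for P53 loss in serum became 1 without either WT 2i library (0 to 1), and the count of 0 for the interaction became 1 without library 2 of WT 2i (0 to 1). No paired analysis was possible because the columns carry no replicate numbers. Depth could not be recovered from FPKM, so what it limits cannot be stated.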
